A study of Mus musculus with 6 samples.

Results

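Amphiregulin, its 5 related EGF family ligands and the 4 ErbB receptors were examined in mammary epithelial cells isolated from pubertal mice. The genes were chosen by name as a ligand and receptor family, and all 10 (*Areg*, *Ereg*, *Egf*, *Tgfa*, *Hbegf*, *Btc*, *Egfr*, *Erbb2*, *Erbb3* and *Erbb4*) were found among the 53912 loci of the count matrix, which has 61880 rows. RNA was sequenced from the inguinal mammary glands of female FVB/NJ mice aged 6 to 8 weeks, with 3 pooled samples from transgenic *fat-1* mice and 3 from wildtype (WT) mice. Mice lack an enzyme that turns *n*-6 into *n*-3 polyunsaturated fatty acids (PUFA), and the *fat-1* gene of *Caenorhabditis elegans* supplies it in all tissues. Both genotypes were kept for life on the parental AIN93G-based diet with 10% fat by weight (22% of kcal) from safflower oil, so the WT mice had mainly *n*-6 PUFA. Each sample was a pool of glands from more than 1 mouse, the estrous stage was not determined, and the cells were released by enzymes without sorting. *p*-values therefore measure the spread between 3 pools per genotype.

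The EGF family ligands are made as membrane-bound precursors, which proteases such as ADAM17 cut to release the active factor. Released ligand binds EGFR, ERBB3 or ERBB4, and the receptors then pair and signal through the RAS and PI3 kinase routes. ERBB2 has no known ligand and acts as a partner, and ERBB3 has a weak kinase and also depends on a partner. In the pubertal gland, estrogen acting on ductal epithelial cells raises amphiregulin, which signals through EGFR in the surrounding stroma and is needed for the ducts to elongate.

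*Ereg*, *Areg* and *Btc* lie in a cluster on chromosome 5 (GRCm38). *Ereg*, which encodes epiregulin, runs from 91074622 to 91093646 on the plus strand, and *Areg* from 91139599 to 91148432 on the same strand. *Btc*, which encodes betacellulin, runs from 91357261 to 91402994 on the minus strand. The cluster also holds *Epgn* (epigen, 91027464 to 91035215) and spans 375531 bases. *Tgfa* (transforming growth factor alpha) lies on chromosome 6 from 86195223 to 86275719 and *Egf* on chromosome 3 from 129677565 to 129755316. *Egfr* and *Erbb2* are both on chromosome 11, from 16752203 to 16918158 and from 98412470 to 98437716. *Erbb3* is on chromosome 10 from 128567523 to 128589652, and *Erbb4* lies on chromosome 1 from 68032186 to 69108059. In the annotation, 141 exonic bases of *Ereg*, 118 of *Tgfa* and 1107 of *Egf* are shared with genes on the other strand, and 9 of *Erbb2*, so counts of these genes may include reads of their neighbours if strand was not used.

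The 250 bases before the RefSeq transcription start are shown for *Areg*, which had the highest level per length among the ligands, for *Tgfa* and *Erbb2*, whose levels moved with the epithelial markers, and for *Egfr*, whose level did not. Sequences are from RefSeq (GRCm38.p6), run 5′ to 3′ in the direction of the gene and end at the base before the start. Capitals mark matches on either strand to TATAAA (the TATA box), TGACGTCA (the cyclic AMP response element), TGANTCA (the AP-1 site), GGGCGG (the GC box), GCCNNNGGC (the AP-2 site) or the estrogen response element (GGTCA and TGACC with any 3 bases between them). RefSeq promoters were found for 7 of the 10 genes.
*Areg* (chr5:91139349-91139598, plus strand): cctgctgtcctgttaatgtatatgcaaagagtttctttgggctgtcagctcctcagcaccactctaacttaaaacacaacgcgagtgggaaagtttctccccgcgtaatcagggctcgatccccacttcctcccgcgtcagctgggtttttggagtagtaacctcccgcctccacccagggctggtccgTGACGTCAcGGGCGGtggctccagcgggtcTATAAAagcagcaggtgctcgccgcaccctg
*Tgfa* (chr6:86194972-86195221, plus strand): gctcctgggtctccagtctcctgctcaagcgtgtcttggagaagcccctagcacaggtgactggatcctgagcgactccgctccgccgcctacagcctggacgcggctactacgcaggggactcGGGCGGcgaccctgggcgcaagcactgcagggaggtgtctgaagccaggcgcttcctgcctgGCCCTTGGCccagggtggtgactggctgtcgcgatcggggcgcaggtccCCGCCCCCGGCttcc
*Erbb2* (chr11:98412234-98412483, plus strand): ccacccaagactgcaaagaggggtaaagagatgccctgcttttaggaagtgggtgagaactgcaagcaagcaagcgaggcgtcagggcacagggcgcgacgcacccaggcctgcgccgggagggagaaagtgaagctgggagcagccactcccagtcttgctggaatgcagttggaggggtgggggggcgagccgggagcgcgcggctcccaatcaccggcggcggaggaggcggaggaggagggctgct
*Egfr* (chr11:16751953-16752202, plus strand): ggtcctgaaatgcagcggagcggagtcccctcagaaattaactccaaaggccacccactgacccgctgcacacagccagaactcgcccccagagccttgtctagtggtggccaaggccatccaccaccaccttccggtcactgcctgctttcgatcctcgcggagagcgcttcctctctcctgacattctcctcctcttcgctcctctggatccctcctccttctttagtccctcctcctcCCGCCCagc

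The *Areg* window held a cyclic AMP response element 61 to 54 bases before the start, a GC box 52 to 47 bases before it and a TATA box 31 to 26 bases before it. Of 32851 mouse promoters of the same length, 1.55% held the cyclic AMP response element, 12.4% the TATA box and 32.7% the GC box. *Areg* was the only gene of the 7 with the TATA box or the cyclic AMP response element. The *Tgfa* window held GC boxes 126 to 121 and 15 to 10 bases before the start and AP-2 sites 64 to 56 and 13 to 5 bases before it, so that the nearer GC box overlapped an AP-2 site. The AP-2 site was found in 13.7% of all promoters. The *Egfr* window held a single GC box 9 to 4 bases before the start, and the *Erbb2* window held none of these letters. The AP-1 site (6.75% of all promoters) and the full estrogen response element (0.0639%) were found in no window of the 7 genes, of which *Egf* had a pair.

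The samples differed in their makeup, which bears on every value below. The summed level of 6 luminal markers was between 929 and 4136 CPM (counts relative to TMM-scaled library totals) in the *fat-1* pools. In the WT pools it was between 975 and 3117 CPM, and sample 1 of each genotype was highest. The 6 basal markers ran in the same direction, from 139.5 to 535 CPM and from 135 to 417 CPM. Fibroblast markers (5 genes) summed to between 1337 and 4788 CPM in the *fat-1* pools and between 2859 and 4539 CPM in the WT pools, and 6 immune markers to between 517 and 1081 CPM and between 501 and 1101 CPM. Of 4 adipocyte markers *Fabp4* carried nearly all counts, and the sums did not overlap, at 83.9 to 107 CPM for *fat-1* and 112 to 126 CPM for WT (single loci did not overlap in 4.15% of all), while *Lep* was at 0 in WT sample 3. *Fabp4* was the only 1 of the 4 at the unadjusted threshold, with a log2 fold change of −0.31 (unadjusted *p* = 0.0370 and adjusted *p* = 1.00 by edgeR). Markers of endothelial, mast and Schwann cells were also counted, while the 3 skeletal muscle markers summed to between 0.564 and 1.03 CPM. The labelled epithelial cells were thus present in every sample together with other cell types, whose part in the results was not tested. In such bulk samples, fewer cells of a type and less RNA per cell cannot be told apart. Total counts were between 204539059 and 232148824 per sample.

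Between the genotypes, none of the 10 genes differed beyond the spread of the samples. With edgeR's quasi-likelihood test and Benjamini–Hochberg adjustment over 24061 loci, 0 of the 10 passed the 0.05 threshold, and the background over all loci was 0.0% called. At an unadjusted *p*-value of 0.05, 0 of the 10 and 1.14% of all loci were called (0.661% lower and 0.478% higher in *fat-1*). The values of the *fat-1* and WT samples overlapped for every one of the 10 genes, while the groups did not overlap for 4.15% of all loci. Of the 10 genes, 6 had a log2 fold change below 0, as did 49.4% of all loci, and 4 had one above 0, as did 50.6% of all loci, and the median was −0.06 beside 0.00 over all loci. All 10 genes stood in a single row of the matrix, so the row with the gene symbol held 100% of the counts of its locus. When rows rather than loci were fitted, 0 of the 10 were called at either threshold, beside 0.0% of 30683 rows at the adjusted and 2.21% at the unadjusted threshold (1.14% lower and 1.07% higher).

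**Figure D1:**
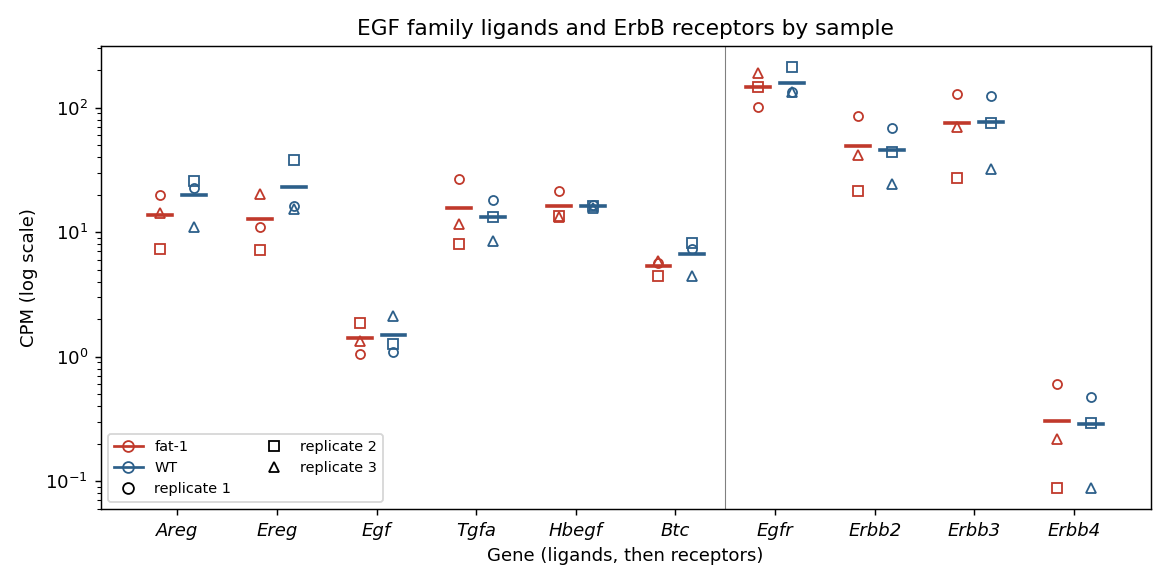
CPM (log scale) of each gene in each of the 6 samples, with *fat-1* in red and WT in blue, symbols for the replicate number and bars for the mean of 3 samples. The samples of the genotypes overlap for all 10 genes, and each gene ranges more widely within a genotype than between the means. The fold range within a genotype is largest for *Erbb2*, *Erbb3* and *Erbb4*.

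*Areg*, the ligand that estrogen raises in ductal cells, stood at 19.9, 7.27 and 14.3 CPM across the *fat-1* pools and at 22.6, 25.7 and 11.0 CPM across the WT pools, in the order of replicates 1 to 3 as for all values given sample by sample. The lowest sample was *fat-1* sample 2 and the highest was WT sample 2, WT samples 1 and 2 lay above all *fat-1* samples, and WT sample 3 lay between *fat-1* samples 3 and 2. Its log2 fold change for *fat-1* relative to WT was −0.52 with a standard error (SE) of 0.44 (adjusted *p* = 1.00), with a 95% interval from 0.331-fold to 1.47-fold. With 1 sample left out at a time the value ran from −0.87 to −0.21, where −0.21 was without *fat-1* sample 2. Without WT sample 2 it was −0.29.

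*Ereg*, whose product binds EGFR and ERBB4, stood at 10.9, 7.16 and 20.2 CPM across the *fat-1* pools and at 16.3, 37.7 and 15.4 CPM across the WT pools. WT sample 2 stood above the others, and without it the log2 fold change of −0.86 (SE 0.50; adjusted *p* = 1.00) became −0.31. Without *fat-1* sample 3 the value was −1.35, with an unadjusted *p*-value of 0.0377 from edgeR's quasi-likelihood test and an adjusted *p*-value of 1.00. The interval of *Ereg* was from 0.240-fold to 1.27-fold.

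*Btc*, a ligand of EGFR and ERBB4, stood at 5.60, 4.40 and 5.90 CPM across the *fat-1* pools and at 7.38, 8.14 and 4.47 CPM across the WT pools. WT samples 1 and 2 lay above every *fat-1* sample and WT sample 3 lay within them. The log2 fold change was −0.33 (SE 0.25; adjusted *p* = 1.00), and between −0.54 and −0.16 with a sample left out. Leaving out WT sample 3 gave the largest difference (unadjusted *p* = 0.0242 and adjusted *p* = 1.00 by edgeR). In that fit 542 loci were at the unadjusted threshold, beside 274 with all samples.

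The remaining ligands showed smaller differences between the means. *Tgfa*, an EGFR ligand made by many epithelia, stood at 26.8, 8.09 and 11.6 CPM across the *fat-1* pools and at 18.2, 13.2 and 8.43 CPM across the WT pools. Its log2 fold change of 0.22 (SE 0.49) became −0.42 without *fat-1* sample 1, the sample with the highest value, and −0.01 without WT sample 3. *Hbegf*, the heparin-binding ligand of EGFR and ERBB4, stood at 21.5, 13.5 and 13.2 CPM across the *fat-1* pools and at 16.4, 16.2 and 15.6 CPM across the WT pools. The *Hbegf* means were 16.1 ± 4.71 CPM (SD, *n* = 3) and 16.1 ± 0.433 CPM, and the WT samples were closer together than the *fat-1* samples. The interval of its difference was from 0.706-fold to 1.42-fold, the narrowest of the 10 genes. *Egf*, the founding ligand of the family, stood at 1.04, 1.85 and 1.32 CPM across the *fat-1* pools and at 1.08, 1.25 and 2.11 CPM across the WT pools. It was highest in *fat-1* sample 2 and WT sample 3, the samples with the lowest *Tgfa*.

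Among the receptors, *Erbb3* varied most of those with more than 1 CPM. It stood at 128, 27.1 and 69.4 CPM across the *fat-1* pools and at 125, 74.9 and 32.3 CPM across the WT pools. The highest *Erbb3* value within a genotype was 4.73-fold (*fat-1*) and 3.87-fold (WT) above the lowest, while the means were 75.0 ± 50.9 and 77.3 ± 46.3 CPM (SD, *n* = 3). *Erbb2*, the receptor without a ligand, stood at 85.3, 21.4 and 41.5 CPM across the *fat-1* pools and at 68.2, 43.9 and 24.4 CPM across the WT pools. *Erbb2*, *Erbb3* and *Tgfa* had the same order of samples, from *fat-1* sample 1 through WT sample 1, WT sample 2, *fat-1* sample 3 and WT sample 3 down to *fat-1* sample 2. *Erbb4*, the receptor for neuregulins that acts in the lactating gland, stood at 0.602, 0.0886 and 0.216 CPM across the *fat-1* pools and at 0.477, 0.291 and 0.0876 CPM across the WT pools. *Erbb4* rests on 18 to 127 counts per sample, so its values carry the largest counting error of the 10 genes.

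*Egfr*, the receptor that amphiregulin uses, had the highest mean CPM of the 10 genes and a different order of samples. It stood at 101, 146 and 190.0 CPM across the *fat-1* pools and at 132, 212 and 132 CPM across the WT pools. *fat-1* sample 1, the highest sample for *Erbb2*, *Erbb3* and *Erbb4*, was the lowest for *Egfr*. *Egfr* was highest in WT sample 2 and *fat-1* sample 3, which also had the highest sums of fibroblast markers, 4539 and 4788 CPM. Its difference between genotypes was −0.13 on the log2 scale (SE 0.29; adjusted *p* = 1.00), with an interval from 0.568-fold to 1.48-fold. It was above 0 without WT sample 2 (0.14) and without *fat-1* sample 1 (0.09), and below 0 without any of the others.

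The levels of most genes were then set against the epithelial content of the samples. The mean log2(CPM + 1) of 10 epithelial markers (6 luminal and 4 basal) was 7.41, 5.40 and 6.37 in *fat-1* samples 1 to 3 and 7.34, 6.46 and 5.47 in WT samples 1 to 3. Subtracting this mean from the log2(CPM + 1) of a gene left little spread for *Erbb3* and *Erbb2*. Their standard deviation over the 6 samples was 0.93 and 0.77 for the level and 0.13 and 0.14 for the level relative to the markers. For *Tgfa* it was 0.62 and 0.32, and for *Areg* 0.65 and 0.50. For *Ereg*, *Egf*, *Hbegf*, *Btc* and *Egfr* the spread was larger after the subtraction, for example 0.39 and 1.06 for *Egfr*. The subtraction takes a gene to double when the markers double. A larger spread therefore does not mean that a gene is unrelated to the markers. The added 1 CPM also compresses *Egf*, which lay between 1.04 and 2.11 CPM. *Erbb4* is too low for this scale, since 1 CPM is added before the logarithm, but its ratio to *Erbb3* varied 1.73-fold over the samples where its CPM varied 6.88-fold.

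**Figure D2:**
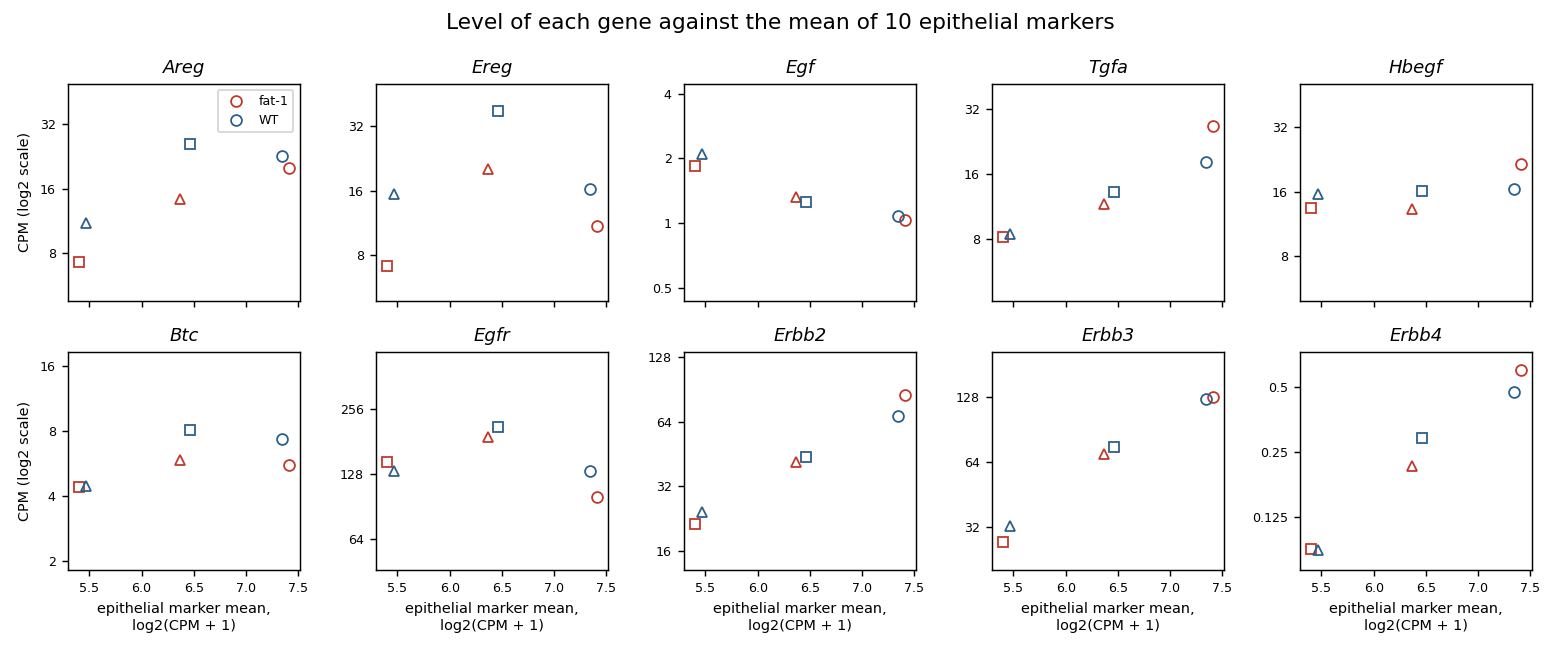
CPM of each gene (log2 scale, the same number of doublings in each panel) against the mean log2(CPM + 1) of 10 epithelial markers, 1 point per sample, with symbols as for the replicates in the plot of levels by sample. *Erbb2*, *Erbb3*, *Erbb4* and *Tgfa* are higher where the marker mean is higher, *Egf* is lower, and *Egfr* and *Ereg* are highest in the middle pair of samples.

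Relative to the epithelial markers, the genotypes overlapped for all 10 genes, as they did for nearly all loci. With 3 pools a genotype, 0.1 is the smallest *p*-value of a two-sided exact permutation test. The 10 exact *p*-values were between 0.3 for *Areg* and 1 for *Egf* and *Hbegf*. *Erbb4*, too low for this scale, and *Egf*, compressed on it, are counted among the 10. The relative level of *Areg* was −3.03, −2.35 and −2.44 in the *fat-1* pools and −2.78, −1.72 and −1.88 in the WT pools, a difference of −0.48 on the log2 scale. It ran from −0.81 without WT sample 1 to −0.28 without WT sample 2 and −0.27 without *fat-1* sample 1. WT samples 2 and 3 lay above every *fat-1* sample, and WT sample 1 lay among them. The groups did not overlap on this scale for only 0.0332% of all loci, so the overlap of the 10 genes tells little about them.

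A fit with the epithelial marker mean as a covariate beside genotype gave narrower intervals. The standard error of *Erbb3* fell from 0.66 to 0.11 and that of *Erbb2* from 0.56 to 0.09, with log2 fold changes of −0.07 and 0.05. The 95% intervals were then from 0.793-fold to 1.15-fold for *Erbb3*, from 0.884-fold to 1.21-fold for *Erbb2* and from 0.862-fold to 1.40-fold for *Tgfa*. *Areg* had a log2 fold change of −0.56 (SE 0.22), with an interval from 0.474-fold to 0.975-fold, an unadjusted *p*-value of 0.0394 and an adjusted *p*-value of 1.00 in edgeR's quasi-likelihood test. It was the only gene of the 10 at or under the unadjusted threshold in this fit, where 2.51% of all loci were (1.31% lower and 1.19% higher in *fat-1*). *Areg* was over that threshold without WT sample 2 (log2 fold change −0.30), *fat-1* sample 2 (−0.43) or *fat-1* sample 1 (−0.53). In edgeR's test these 3 fits gave unadjusted *p*-values of 0.0921, 0.158 and 0.0911 and an adjusted *p*-value of 1.00. It stayed under the threshold without WT sample 1 (−0.76), *fat-1* sample 3 (−0.65) or WT sample 3 (−0.66), with unadjusted *p*-values of 0.00883, 0.0362 and 0.0408 and adjusted ones of 1.00, 0.777 and 0.876 by edgeR. With the luminal markers alone as the covariate it was −0.57 (unadjusted *p* = 0.0361 and adjusted *p* = 1.00 by edgeR). With the basal markers alone as the covariate it was −0.54 (unadjusted *p* = 0.0532 and adjusted *p* = 1.00 by edgeR). The lowest adjusted *p*-value among all these fits was 0.777 by edgeR, without *fat-1* sample 3. The standard error also fell for *Egf* (0.34 to 0.15), *Hbegf* (0.21 to 0.15) and *Btc* (0.25 to 0.19). That of *Egfr* went from 0.29 to 0.27. The intervals of *Ereg* and *Egfr* stayed wide, from 0.245-fold to 1.24-fold and from 0.572-fold to 1.43-fold.

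**Figure D3:**
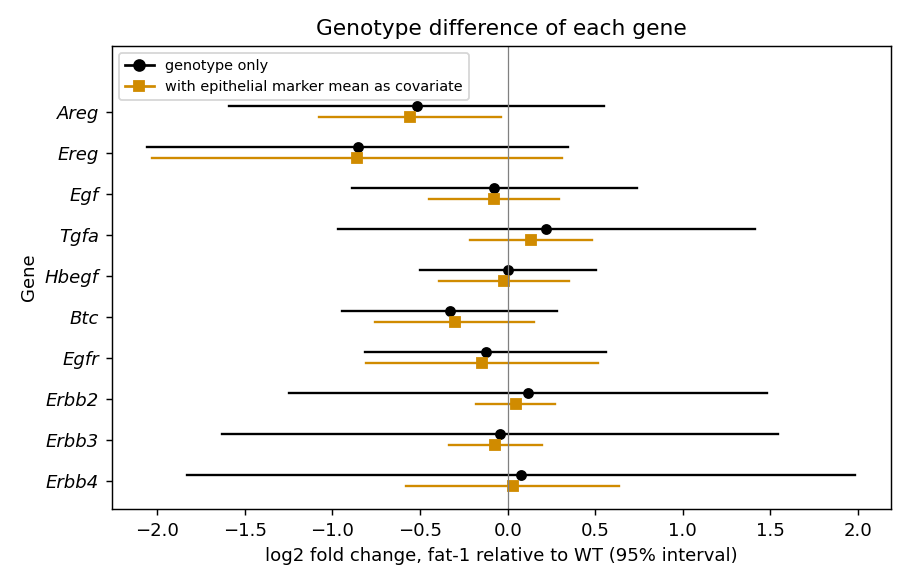
log2 fold change of each gene for *fat-1* relative to WT with its 95% interval, from the fit with genotype only (black circles) and from the fit with the epithelial marker mean as a covariate (orange squares). The intervals of *Erbb2*, *Erbb3* and *Erbb4* shrink with the covariate, and every interval includes 0 other than that of *Areg* with the covariate, which ends at −0.04.

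To compare the genes with each other, CPM was divided by the length of the annotated exons in kb. On this scale *Areg* (13.8 ± 5.86 CPM per kb; SD, *n* = 6), *Egfr* (13.4 ± 3.64) and *Erbb3* (12.7 ± 7.23) were at similar levels. *Areg* was above *Egfr* in 3 of the 6 samples and *Egfr* was above *Erbb3* in 4, so these neighbours did not differ beyond their spread. *Erbb2* followed with 9.11 ± 4.80 CPM per kb and was below *Erbb3* in all 6 samples. *Ereg* (4.35 ± 2.58) was above *Hbegf* (3.32 ± 0.619) in 4 samples, and *Hbegf* was above *Tgfa* (2.21 ± 1.10) in all 6. *Tgfa* was in turn above *Btc* (1.32 ± 0.336), *Btc* above *Egf* (0.128 ± 0.0386) and *Egf* above *Erbb4* (0.0238 ± 0.0169) in all 6 samples. With the longest transcript in place of all exons, *Egf* was at 0.303 CPM per kb. The order of 2 pairs of means then turned, with *Hbegf* (5.56 CPM per kb) above *Ereg* (4.35) and *Egfr* (14.9) above *Areg* (13.8).

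*Areg* made up the largest part of the summed ligand level per length in every sample, 51.7% ± 5.10 (SD, *n* = 3) in the *fat-1* pools and 55.5% ± 6.03 in the WT pools. *Ereg* made up between 9.17% and 24.3% of it and *Egf* between 0.296% and 1.27%. The makeup of the receptors changed more from sample to sample. *Egfr* was 19.0%, 59.9% and 46.2% of the receptor sum in the *fat-1* pools and 25.7%, 47.2% and 53.8% in the WT pools. The mean share of *Egfr* was 41.7% ± 20.8 in the *fat-1* pools and 42.2% ± 14.7 in the WT pools, a difference far within the spread. *Erbb3* was 45.7% of the sum in *fat-1* sample 1 and 45.5% in WT sample 1, the samples with the highest epithelial markers, and *Erbb4* was at most 0.104% in any sample. The ratio of *Erbb2* to *Egfr* counts varied 5.79-fold over the 6 samples, while that of *Erbb3* to *Erbb2* varied 1.45-fold and that of *Tgfa* to *Erbb2* 1.41-fold.

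**Figure D4:**
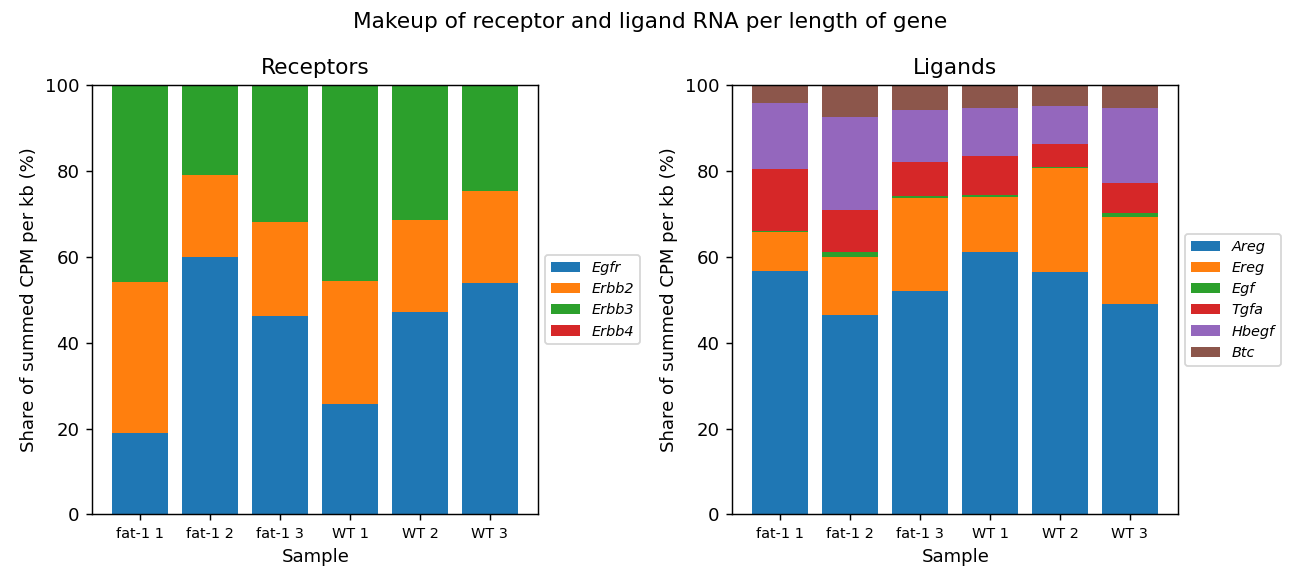
Share in percent of each gene in the summed CPM per kb of the 4 receptors (left) and the 6 ligands (right), with 1 bar per sample. *Egfr* takes between 19.0% and 59.9% of the receptor sum, *Areg* takes between 46.4% and 61.0% of the ligand sum, and *Erbb4* is too low to be seen.

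*Areg* and its neighbours in the cluster differed in how closely they ran together. The ratio of *Areg* to *Ereg* CPM was 1.82, 1.01 and 0.705 in the *fat-1* pools and 1.39, 0.683 and 0.717 in the WT pools, a 2.66-fold range. That of *Areg* to *Btc* was 3.55, 1.65 and 2.42 in the *fat-1* pools and 3.07, 3.16 and 2.47 in the WT pools, a 2.15-fold range. For 12902 loci with a gene symbol and a mean of at least 1 CPM, the pattern over the 6 samples was compared with that of *Areg* by the root mean square difference of the centred log2(CPM + 1). *Btc* ranked 445th (0.353) and *Ereg* 2994th (0.509) in likeness to *Areg*. The closest loci were *Cd14* (0.121), a lipopolysaccharide co-receptor found on myeloid and luminal progenitor cells, *3830417A13Rik* (0.142) and *Mid1* (0.156), a ubiquitin ligase. *3830417A13Rik* lay between 0.0979 and 1.78 CPM, where the added 1 CPM compresses differences, so its likeness holds only on this scale. *Cd14* stood at 48.4, 22.1 and 36.1 CPM across the *fat-1* pools and at 58.2, 55.5 and 29.3 CPM across the WT pools. It was picked for likeness to *Areg* in these same samples, so their similar pattern follows from that choice. The 4 luminal progenitor markers, *Cd14* among them, summed to 994, 174 and 220 CPM across the *fat-1* pools. Their sums across the WT pools were 537, 306 and 169 CPM, so *fat-1* sample 1 was highest.

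The loci most like *Erbb3* were *Rab25* (0.0641), which encodes a trafficking GTPase of epithelial cells, *Pof1b* (0.0689) and the chloride channel gene *Ano1* (0.0818), and *Erbb2* ranked 78th (0.195). Those most like *Egfr* were the lipid phosphatase gene *Plpp3* (0.0662), *Evc2* (0.0791), which encodes a protein of the primary cilium, and *Sirpa* (0.0793), a receptor for CD47. *Plpp3* stood at 111, 153 and 224 CPM across the *fat-1* pools and at 159, 232 and 150 CPM across the WT pools. It was lowest in *fat-1* sample 1 and highest in WT sample 2, as *Egfr* was, which follows from its choice by likeness. The ratio of *Egfr* to the fibroblast receptor gene *Pdgfra* varied 1.85-fold, and *Egfr* itself 2.11-fold.

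Other genes of the pathway were examined in lists by role, and 70 of 71 passed the filter on low counts. None of them passed 0.05 with or without adjustment in edgeR's quasi-likelihood test, beside 1.14% of all loci at the unadjusted threshold, and the groups overlapped for every gene of the lists, where they did not for 4.15% of all loci. Log2 fold changes were below 0 for 40 and above 0 for 30, beside 49.4% below 0 over all loci, with a median of −0.02. The direction counts of the single lists are of few genes that share samples and are given as a description.

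Of the 5 other ligands, 4 were tested and 0 were called. *Epgn*, the fourth ligand gene of the chromosome 5 cluster, stood at 6.07, 1.18 and 2.34 CPM across the *fat-1* pools and at 8.74, 3.29 and 1.58 CPM across the WT pools, and so varied 7.41-fold. Its log2 fold change was −0.51 (SE 0.78), and with the epithelial covariate it had an unadjusted *p*-value of 0.0166 and an adjusted one of 1.00 by edgeR. In that fit 2.51% of all loci were at or under an unadjusted 0.05. *Nrg1*, a ligand of ERBB3 and ERBB4, stood at 5.10 ± 1.48 CPM (SD, *n* = 3) across the *fat-1* pools and at 4.62 ± 1.05 CPM across the WT pools. *Nrg3* had counts only in *fat-1* sample 3, at 0.0144 CPM, and a count of 0 in the other samples allows up to between 0.0129 and 0.0147 CPM (counting error only).

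In the list for shedding and trafficking of ligands, 0 of 9 genes were called. *Adam10*, a protease that releases EGF and betacellulin, stood at 208 ± 68.5 CPM across the *fat-1* pools and at 219.5 ± 61.2 CPM across the WT pools (SD, *n* = 3). *Adam17* had a log2 fold change of −0.02 (SE 0.11). *Rhbdl2*, a rhomboid protease, varied 4.60-fold over the samples and had a log2 fold change of 0.46 (SE 0.62). With the epithelial covariate it had an unadjusted *p*-value of 0.0229 by edgeR, where 2.51% of all loci were at or under 0.05.

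Of 25 adaptors and kinases, 0 were called, and the log2 fold changes were between −0.15 and 0.38. *Akt1*, a kinase downstream of PI3 kinase, had 213 ± 29.7 and 211 ± 11.1 CPM. *Pik3cb*, a catalytic subunit of PI3 kinase, had 44.0 ± 34.6 and 33.9 ± 12.5 CPM. *Gab1*, a docking protein of EGFR, varied 3.88-fold, with *fat-1* sample 1 (71.8 CPM) and WT sample 1 (62.1 CPM) highest.

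Of 15 feedback inhibitors of the receptors, 0 were called. *Cbl*, the ubiquitin ligase that sends EGFR for degradation, varied least of the 15 over the samples (1.09-fold), with 135 ± 5.90 CPM in the *fat-1* pools and 135 ± 2.99 CPM in the WT pools. *Spry1* had 6.08 ± 2.29 and 6.24 ± 2.88 CPM. *Errfi1*, an inhibitor of the receptor kinase, had a log2 fold change of 0.00 (SE 0.20).

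Among 10 response genes, 0 were called, with 7 values below and 3 above 0 (49.4% of all loci were below 0). *Ier3* stood at 319 ± 68.0 CPM across the *fat-1* pools and at 344 ± 93.2 CPM across the WT pools. *Etv4* had 10.1 ± 4.99 and 10.8 ± 5.79 CPM, and *Egr1*, an immediate early gene, had a log2 fold change of −0.25 (SE 0.25).

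Of 7 genes that induce amphiregulin or mark the cells that make it, 0 were called, and 6 of the 7 had a log2 fold change below 0, beside 49.4% of all loci. *Pgr*, the progesterone receptor gene, stood at 213, 67.2 and 146 CPM across the *fat-1* pools and at 243, 147 and 72.8 CPM across the WT pools. Its locus also holds *Gm16485*, whose counts are part of these values. *Esr1*, the gene of estrogen receptor alpha, stood at 19.4, 9.00 and 14.1 CPM across the *fat-1* pools and at 23.3, 15.4 and 8.05 CPM across the WT pools. Both were lowest in *fat-1* sample 2 and WT sample 3, the samples with the lowest epithelial markers. The ratio of *Areg* to *Esr1* was 1.02, 0.807 and 1.01 in the *fat-1* pools and 0.969, 1.67 and 1.37 in the WT pools. WT samples 2 and 3 were therefore above every *fat-1* sample for this ratio, and WT sample 1 was not. *Cited1* had 3.10 ± 2.01 and 4.45 ± 1.32 CPM and a log2 fold change of −0.52 (SE 0.47).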

How the data were processed

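RNA was sequenced from 3 *fat-1* and 3 WT pools of isolated mammary epithelial cells. The authors used HISAT2 for alignment (GRCm38) and StringTie for assembly and quantification. The matrix they deposited holds estimated counts, that is, the expected counts of StringTie as whole numbers, with no normalization by the authors. The annotation, the use of strand and the StringTie version are not given in the sources used here. Genotype and replicate number came from the sample labels. Rows with the same locus identifier were added together.

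Loci were tested with edgeR 4.0.16 in R 4.3.3 (quasi-likelihood test with legacy off, filterByExpr, TMM, genotype only, Benjamini–Hochberg over all loci, threshold 0.05). Standard errors are the log2 fold change over the square root of F, and intervals use the *t* distribution. CPM are relative to TMM-scaled totals. A count of 1 is worth under 0.01 CPM, so that the 3 pools rather than the depth limit precision. Tests were checked on counts simulated with independent loci and with less spread between samples than these data. The check does not show how the tests behave on samples that differ in makeup. Exact permutation tests were two-sided on log2(CPM + 1). DESeq2 1.42.0 and other filters, scalings and designs were alternatives. Exon lengths are from GENCODE M21. Of 71 other pathway loci, 9 also hold another symbol, among them those of *Nrg1*, *Akt1* and *Pgr*. Python 3.11.15, scipy 1.17.1 and matplotlib 3.10.9 were also used.

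The genes and lists were chosen with earlier results of these data known. All 10 genes are named. From each other list the text names the genes with the highest and lowest CPM and those at or under the unadjusted threshold, of which there were none, and for *Areg*, *Egfr* and *Erbb3* the 3 loci most alike. *Adam17*, *Gab1*, *Errfi1*, *Egr1*, *Epgn*, *Esr1* and *Pdgfra* were named after their values were seen.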

Additional observations from a re-analysis of the deposited data

How the results depend on the processing

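No gene of the family was called under any alternative: the count past the adjusted threshold was 0 of 10 with loci and with rows in every fit, including the replicate block, DESeq2 size factors, upper quartile scaling, no filter, a minimum of 10 counts in 3 samples, the older quasi-likelihood fit, the exact test of edgeR, DESeq2 and the epithelial covariate. Over all loci the count was 0 in the main fit (274 at the unadjusted threshold), 6 by the exact test of edgeR and 8 by DESeq2, and from 0 to 1 with a sample left out (1 without WT sample 1). Over all rows it was 0 (678 unadjusted), 32 by the exact test and 93 by DESeq2, and from 0 to 2 with a sample left out (2 without WT sample 1). Of the other pathway genes 0 were at the unadjusted threshold, and 2 of 70 with the epithelial covariate (2.51% of all loci). With a sample left out the count of pathway genes was from 0 to 4. It was 4 without WT sample 3, where 542 of all loci were at that threshold, and 2 without *fat-1* sample 3, where 401 were. With all samples 274 loci were. The shares in the fits with a sample left out were not computed, so these counts are not read as a result about the pathway. The replicate numbers were not used as pairs in the main fit. Deviations of same-numbered samples correlated at 0.799, −0.164 and 0.132 for replicates 1 to 3. The replicate block gave 0 loci at the adjusted and 376 at the unadjusted threshold, beside 274 in the main fit. Whether same-numbered samples shared a batch was not tested and cannot be told apart from a shared makeup of cells.

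The sign of the log2 fold change turned only for genes whose value in the main fit was smaller than its SE. The turned value itself was not always small: *Hbegf* was −0.26 (SE 0.11) without *fat-1* sample 1. The cause was not tested. The log2 fold change of *Hbegf* (0.00) was −0.00116 without a filter, −0.0375 with the replicate block and −0.0222 with the epithelial covariate. Relative to the markers, *Hbegf* was 0.000944 with 0.1 CPM added and 0.0336 with basal markers only, and *Egf* was 0.0293 with basal markers only. With a sample left out, the log2 fold changes were from −0.33 to 0.28 for *Egf*, −0.425 to 0.53 for *Tgfa*, −0.26 to 0.12 for *Hbegf*, −0.37 to 0.14 for *Egfr*, −0.525 to 0.53 for *Erbb2*, −0.67 to 0.48 for *Erbb3* and −0.91 to 0.65 for *Erbb4*. The differences relative to the markers were from −0.63 to 0.64 for *Egf*, −0.0831 to 0.34 for *Tgfa*, −0.45 to 0.46 for *Hbegf*, −0.62 to 0.25 for *Btc*, −0.68 to 0.64 for *Egfr*, −0.0627 to 0.15 for *Erbb2*, −0.16 to 0.0176 for *Erbb3* and −0.34 to 0.405 for *Erbb4*. *Areg* and *Ereg* stayed below 0 in all of these. On the scale relative to the markers *Erbb4* is too low and *Egf* is compressed. The alternatives for *Areg* with the covariate were chosen after seeing the data.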
